A study of Mus musculus with 6 samples.

Results

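The comparison set B16-F1R2, a mouse melanoma line derived from a lymph node metastasis, against B16-F1, the line of low metastatic potential from which it descends. It covered the 11124 of 23951 genes in the table that reached at least 1 FPKM (fragments per kilobase of transcript, scaled to the mapped reads of the library) in at least 2 of the 4 libraries of these lines, and the functions described lie outside the extracellular matrix and the pigment pathway. Each line was represented by 2 libraries of untreated cultured cells. Both lines were grown in high glucose DMEM with fetal bovine serum, glutamine and gentamicin, and neither carried an engineered allele that the labels name. B16-F1 came from the ATCC and B16-F1R2 from a laboratory at ETH Zurich, so the effects of selection in the lymph node and of separate culture histories cannot be told apart. Whether both libraries of each line were separate cultures is not in the labels, so the p-values measure only how these libraries spread, which may be technical. A further line of the series, B16-F1R2L, entered the model only to estimate the spread.

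B16 melanoma cells are of melanocyte origin and carry the machinery of lysosome-related organelles, in which melanin is made. Lysosomes are acidified by a proton pump, the V-ATPase, and share with melanosomes a supply of enzymes and membrane proteins from the endoplasmic reticulum (ER) and Golgi. Sterol synthesis, ER folding capacity, amino acid supply, glycolysis and the interferon response are each run by a small set of transcription factors that raise or lower many target genes at once, which makes them readable as groups in RNA data.

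Estimated depth, summed FPKM and the spread between libraries were similar in the lines, and values of RNA quality are not given in the sources used here. The estimated depth was 12600000 to 13500000 reads for B16-F1 and 13500000 to 15500000 for B16-F1R2, and the FPKM summed to between 637700 and 672800. Libraries of the same line differed by a median of 0.065 on the log2 scale in B16-F1 and 0.083 in B16-F1R2 over 11031 genes, and 0.897 and 0.953 over the 93 small RNA genes, which were left out of the named genes. All 7 melanocyte markers were present, at 14.2 FPKM or more in every library, but 6 of them were lower in B16-F1R2, and their sum went from 15000 FPKM in both B16-F1 libraries to 8120 and 7910. Tyr, or tyrosinase, stood at 192 and 186 against 14.7 and 14.2, and Mitf did not pass the test. The part of this shift in the lower lysosomal and lineage genes described below was not tested. Of the markers of other cells, Ptprc, the pan-leukocyte antigen, was listed at 0 in all 4 libraries, as were 4 of 8 T cell markers. The 8 T cell markers summed to at most 0.366 FPKM in B16-F1 and 1.21 in B16-F1R2. The 10 macrophage markers summed to at most 2.56 and 3.29. The 7 B cell markers summed to 0.157 and 0.188 FPKM in B16-F1 and to 13.2 and 12.8 in B16-F1R2, almost all of it from Cd79a, and Ms4a1 was listed at 0. The 9 fibroblast markers summed to 1.14 and 1.33 FPKM against 22.4 and 23.2, from Col1a1, Pdgfrb and Col1a2, while Dcn, Lum and Thy1 were listed at 0. The 8 keratinocyte markers summed to 2.63 and 2.25 FPKM against 156 and 134, from Lgals7, with Krt5, Krt1, Krt10 and Trp63 listed at 0. Of 8 blood endothelial markers, 6 were listed at 0 and Eng was lower in B16-F1R2. Of 6 lymphatic endothelial markers, Lyve1 and Ccl21a were listed at 0.

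On the log2(FPKM + 0.1) scale, limma called 3118 genes (28.0%) higher and 3115 (28.0%) lower in B16-F1R2 at an adjusted p under 0.05, 56.0% of the genes tested. Most differences were small. When the log2 fold change also had to reach 1, 723 genes (6.50%) were higher and 327 (2.94%) lower, and 299 genes rose by 3 or more on this scale against 50 that fell by as much. The libraries of the lines did not overlap for 80.2% of the genes tested, so a lack of overlap alone says little about a gene. For any one gene, 2 libraries against 2 allow an exact permutation test no two-sided p under 0.333, so a call rests on the spread shared across genes by limma. The median over all genes was 0.00 (log2). In bulk RNA, fewer cells of a type and less RNA per cell cannot be told apart. For genes near 0, the added 0.1 makes fold changes smaller than those of the FPKM.

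**Figure D1:**
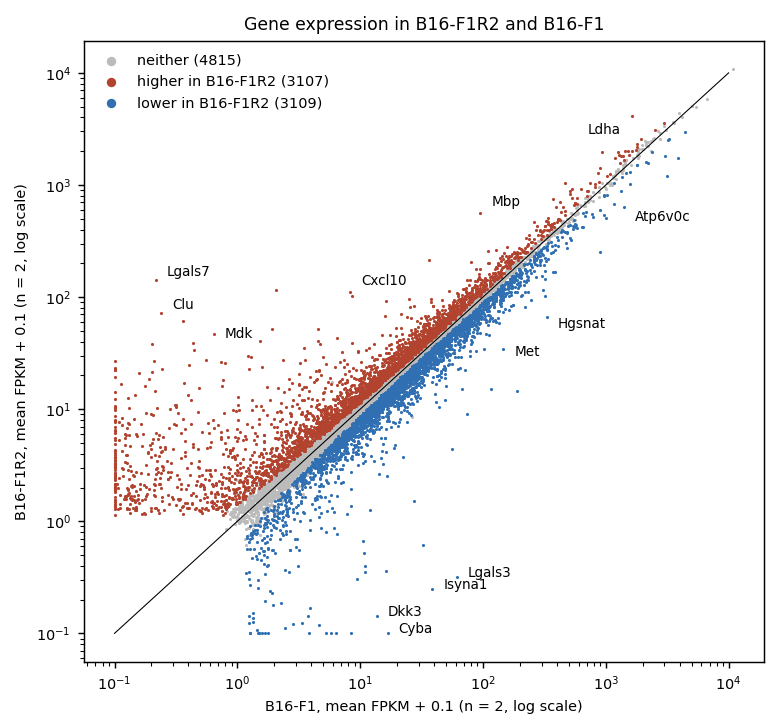
Mean FPKM + 0.1 of each gene in B16-F1 (horizontal axis) and B16-F1R2 (vertical axis), both on log scales, with small RNA genes left out; red points were called higher in B16-F1R2, blue points lower and grey points neither, and the line marks equal levels. Lgals7, Clu and Mdk lie far above the line at under 1 FPKM in B16-F1, and Lgals3, Isyna1, Dkk3 and Cyba far below it.

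The groups that moved together fall into 2 sets. Genes of cholesterol synthesis, the lysosome and its proton pump, ER folding, the amino acid stress response and the feedback arm of MAPK signalling were mostly lower in B16-F1R2, and genes of glycolysis, ribosome assembly, nucleotide synthesis, the interferon response and antigen presentation were higher more often than lower. Several of these programs have a known DNA element in the promoters of their genes. The elements were searched on both strands of the 250 bases before the start site of the 8967 genes (80.6%) with a promoter in RefSeq (build GRCm38.p6), after the results of the lists were known. A gene counted as a carrier if any of its promoters held the element, so shares given of promoters are shares of genes. The promoters below carry such elements, shown in capitals, in genes that the results turn on: the lysosomal CLEAR element (TCACGTGA) in Mcoln1 and Ctsd, the ER stress element (CCAAT and CCACG with 9 bases between them) in Hspa5, the interferon-stimulated response element (TTTC and again TTTC with 2 bases between, here as 3 overlapping matches on the other strand) in Isg15 and as 2 separate matches in Ifit1, the hypoxia response element (GACGTG, here on the other strand as CACGTC) in Ldha, and the amino acid response element (TGATGNAA, here on the other strand) in Chac1.
Mcoln1, chr8:3500269-3500518, plus strand: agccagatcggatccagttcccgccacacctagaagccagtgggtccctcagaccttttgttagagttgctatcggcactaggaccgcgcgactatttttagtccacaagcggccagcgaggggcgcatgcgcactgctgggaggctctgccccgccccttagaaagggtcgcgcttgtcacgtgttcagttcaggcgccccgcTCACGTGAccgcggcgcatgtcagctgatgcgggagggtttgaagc
Ctsd, chr7:142387828-142388077, minus strand: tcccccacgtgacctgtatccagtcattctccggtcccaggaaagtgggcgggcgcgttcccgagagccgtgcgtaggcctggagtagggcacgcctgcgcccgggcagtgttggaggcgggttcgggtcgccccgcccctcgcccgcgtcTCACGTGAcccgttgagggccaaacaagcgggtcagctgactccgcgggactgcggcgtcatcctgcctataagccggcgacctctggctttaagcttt
Hspa5, chr2:34771840-34772089, plus strand: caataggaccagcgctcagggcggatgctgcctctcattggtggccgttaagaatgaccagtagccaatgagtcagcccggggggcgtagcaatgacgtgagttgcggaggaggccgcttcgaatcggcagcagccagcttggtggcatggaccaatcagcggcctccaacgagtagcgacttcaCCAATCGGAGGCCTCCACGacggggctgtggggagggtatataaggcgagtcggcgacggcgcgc
Isg15, chr4:156200819-156201068, minus strand: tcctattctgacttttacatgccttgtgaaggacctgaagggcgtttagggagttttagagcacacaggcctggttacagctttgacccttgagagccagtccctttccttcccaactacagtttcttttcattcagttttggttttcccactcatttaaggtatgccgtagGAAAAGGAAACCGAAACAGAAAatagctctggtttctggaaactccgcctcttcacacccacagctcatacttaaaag
Ifit1, chr19:34640639-34640888, plus strand: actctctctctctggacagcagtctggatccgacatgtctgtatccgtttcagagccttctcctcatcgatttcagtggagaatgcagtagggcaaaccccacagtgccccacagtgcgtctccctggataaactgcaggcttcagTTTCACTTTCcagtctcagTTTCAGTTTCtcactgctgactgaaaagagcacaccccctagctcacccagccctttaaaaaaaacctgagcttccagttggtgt
Ldha, chr7:46845554-46845803, plus strand: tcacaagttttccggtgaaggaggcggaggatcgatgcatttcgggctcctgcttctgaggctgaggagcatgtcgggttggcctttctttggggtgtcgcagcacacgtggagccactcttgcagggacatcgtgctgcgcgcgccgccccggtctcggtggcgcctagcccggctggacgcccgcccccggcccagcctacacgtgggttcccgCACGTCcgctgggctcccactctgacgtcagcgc
Chac1, chr2:119350992-119351241, plus strand: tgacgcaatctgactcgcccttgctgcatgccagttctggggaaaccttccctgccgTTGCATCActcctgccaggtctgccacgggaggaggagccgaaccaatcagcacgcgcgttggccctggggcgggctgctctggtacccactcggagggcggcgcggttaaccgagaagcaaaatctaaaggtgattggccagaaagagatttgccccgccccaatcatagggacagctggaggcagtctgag

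Cholesterol synthesis genes were lower almost throughout. The pathway starts from acetyl-CoA, runs through mevalonate and farnesyl pyrophosphate to squalene and then sterols, and its genes are driven by SREBP-2. Of its 31 members, 27 were tested, 24 were lower in B16-F1R2, 2 did not pass and only Srebf1 was called higher, against 28.0% of all genes in each direction. The median log2 fold change was -0.70, and 8 members fell by at least 1. Srebf1, which encodes SREBP-1, was 40.8 and 43.6 FPKM in B16-F1, compared with 48.5 and 48.7 in B16-F1R2 (log2 fold change 0.20, adjusted p = 0.038 from limma), and that call was lost with any library left out.

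In the mevalonate arm, Fdps, farnesyl pyrophosphate synthase, was 384 and 383 FPKM in B16-F1, compared with 174 and 160 in B16-F1R2 (log2 fold change -1.20 ± 0.06 SE, adjusted p = 9.6e-06 from limma). Mvd, mevalonate decarboxylase, went from 42.0 and 42.7 FPKM to 20.2 and 19.4. Both lines were tight and the groups lay a wide gap apart. Among the later sterol enzymes, Tm7sf2, a sterol reductase, fell most, from 11.7 and 12.8 to 3.87 and 3.51 FPKM (log2 fold change -1.71 ± 0.09 SE, adjusted p = 1.4e-05). Msmo1, Nsdhl and Cyp51, which remove methyl groups from lanosterol, fell by between 1.05 and 1.09 on the log2 scale, as did Acat2 by 1.07. Insig1, an ER protein that holds SREBP back and is itself an SREBP target, went from 113 and 110 FPKM to 60.2 and 62.8. Abca1, which exports cholesterol and is driven by LXR rather than SREBP, was low in both lines, at 1.08 and 1.23 FPKM against 0.165 and 0.248. Scap, the escort protein of SREBP, did not pass the test, with a log2 fold change of -0.14. The genes beyond Fdps, Tm7sf2, Abca1 and Srebf1 in this account were chosen after their values were seen. A sterol regulatory element (TCACNCCAC) was in none of the 20 promoters of the list that matched, and in 1.25% of all promoters searched.

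Fatty acid and other lipid genes did not share this uniformity. Of 42 tested members 12 were higher and 22 lower, with a median of -0.17, and with a filter at 5 FPKM the count higher was 7. The rises were the larger changes. Acsbg1, an acyl-CoA synthetase of brain and steroid-making tissue, was 0.319 and 0.200 FPKM in B16-F1, compared with 61.9 and 60.3 in B16-F1R2, and Fabp3, the heart type fatty acid carrier, went from 1.36 and 1.05 FPKM to 29.3 and 28.9. Cpt1c, a brain form of carnitine palmitoyltransferase, fell by 1.69 on the log2 scale, and Ppard, a lipid-sensing nuclear receptor, by 1.15.

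Lysosomal genes were mostly lower. Of 54 members 52 were tested, 42 were lower in B16-F1R2 and 3 higher, with a median log2 fold change of -0.54. The list holds the V-ATPase subunits, acid hydrolases, membrane proteins and the transcription factors TFEB and TFE3. Of the proton pump, the membrane ring subunit Atp6v0c was the most abundant, at 1388 and 1441 FPKM in B16-F1, compared with 632 and 650 in B16-F1R2 (log2 fold change -1.14 ± 0.06 SE, adjusted p = 1.2e-05 from limma). Atp6v0a1 fell by 0.88 and Atp6v1e1 by 0.70 on the log2 scale, while Atp6v1h was slightly higher (0.25) and Atp6v1c1 did not pass the test.

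Among the hydrolases, Ctsd, the aspartic protease cathepsin D, went from 1001 and 994 FPKM to 506 and 499, and Naglu, which degrades heparan sulphate, from 126 and 128 to 62.0 and 57.8. Hgsnat, the acetyltransferase that acts in the same heparan sulphate breakdown, was 332 and 330 FPKM in B16-F1, compared with 66.0 and 66.3 in B16-F1R2 (log2 fold change -2.32 ± 0.04 SE, adjusted p = 1.1e-07), and it stood outside the list, among the 20 largest falls of abundant genes. Ctsh, an aminopeptidase cathepsin, went the other way, from 3.20 and 3.36 FPKM to 9.61 and 9.21. In the membrane, Mcoln1, the calcium channel mucolipin-1, fell from 43.4 and 38.8 to 11.1 and 11.8 FPKM (log2 fold change -1.84 ± 0.07 SE, adjusted p = 3.9e-06), Cln3 from 4.95 and 5.64 to 1.09 and 1.16, and the cholesterol exporter Npc1 from 28.9 and 28.5 to 13.97 and 14.4. Outside the list, the chloride-proton exchanger Clcn7 and the acid sphingomyelinase Smpd1 each fell by 1.11 on the log2 scale. Asah1, Lipa and Psap, which also act in lysosomal lipid breakdown, did not pass the test. Tfe3 was 21.8 in both B16-F1 libraries against 15.5 and 15.1 FPKM, and Tfeb 11.9 and 10.9 against 9.81 and 9.37. The CLEAR element, which these 2 factors bind, was in the promoters of 6 of 40 matched members (15.0%), Atp6v1a, Cln3, Ctsa, Ctsd, Gla and Mcoln1, and in 1.92% of all promoters searched. All 6 were lower in B16-F1R2. Melanocyte lineage factors had 10 of 19 tested members lower, among them Sox9, Snai2 and Bhlhe41, which fell by between 1.05 and 1.56 on the log2 scale. Sox4 was called higher (log2 fold change 0.19), a call that was lost when any library was left out.

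Of 30 genes for ER chaperones and the unfolded protein response 29 were tested, and 22 were lower in B16-F1R2, 2 higher and 5 neither, with a median of -0.47. These genes encode the folding enzymes of the ER and the sensors that raise them under load. Hspa5, the ER chaperone BiP, was 918 and 869 FPKM in B16-F1, compared with 602 and 595 in B16-F1R2 (log2 fold change -0.58 ± 0.07 SE, adjusted p = 4.0e-04 from limma). Pdia4, a disulphide isomerase, fell most, from 321 and 316 to 146 and 145 FPKM (log2 fold change -1.13). Calr, calreticulin, fell from 1180 and 1164 FPKM to 675 and 688, whereas its membrane-bound relative Canx, at 284 to 293 FPKM in all 4 libraries, did not pass the test, and neither did Hsp90b1. The sensors were split. Atf6 (16.6 and 16.3 against 9.06 and 9.14 FPKM) and Eif2ak3, which encodes PERK, were lower, and Ern1, which encodes IRE1, was higher (4.50 and 4.69 against 7.11 and 7.64). The other member called higher, Ero1l, lost that call when any library was left out. The ER stress element, searched with its fixed spacer, was in the promoters of 9 of 24 matched members (37.5%) and in 0.190% of all promoters searched. Of these 9, Calr, Dnajc3, Ero1lb, Hspa5, Pdia6 and Syvn1 were lower, and Canx, Creld2 and Hsp90b1 did not pass the test.

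The amino acid stress response, driven by ATF4, had 21 of 38 tested members lower and 5 higher, with a median of -0.22. Chac1, which degrades glutathione, fell from 28.4 and 22.9 to 9.12 and 8.34 FPKM (log2 fold change -1.54 ± 0.11 SE, adjusted p = 4.6e-05). Slc7a11, the cystine importer, went from 5.62 and 4.70 FPKM to 1.95 and 2.55, Trib3 from 27.0 and 25.9 to 13.56 and 14 and Sesn2 from 11.9 and 10.8 to 5.49 and 6.16. Asns, asparagine synthetase and a textbook ATF4 target, did not pass the test, at 130 and 124 against 128 and 126 FPKM. Phgdh, the entry enzyme of serine synthesis, was higher (270 and 272 against 405 and 380), as was Cebpb (9.70 and 11.4 against 21.3 and 22.8). The amino acid response element was in 8 of 33 matched promoters of the list (24.2%) against 2.35% of all, and of those 8 genes Aars, Atf3, Chac1, Gars and Slc7a11 were lower, Nupr1 and Tars higher and Asns neither. The call of Nupr1 was lost without B16-F1R2 library 1.

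Glycan-building enzymes, which work along the same secretory route, had 20 of 32 tested members lower and 4 higher. St6gal1, which caps glycans with sialic acid in the alpha-2,6 linkage, fell from 18.8 and 19.6 to 4.55 and 4.82 FPKM (log2 fold change -2.01 ± 0.08 SE, adjusted p = 3.8e-06 from limma). St3gal4, an alpha-2,3 sialyltransferase, fell from 76.6 and 80.0 to 30.3 and 28.7, and B3galt4 by 1.69 on the log2 scale. Gcnt1, which starts core 2 branches on mucin-type glycans, rose from 2.29 and 1.82 to 5.44 and 5.17, and Galnt10, which starts such glycans, from 3.98 and 4.50 to 9.93 and 10.8. Of the galectins, which read glycans, Lgals3 and Lgals7 differed by more than any enzyme called in the list. Lgals3 was 60.1 and 63.0 FPKM in B16-F1, compared with 0.170 and 0.267 in B16-F1R2, and Lgals7 was 0.235 in a B16-F1 library, listed at 0 in the other, and 154 and 132 in B16-F1R2. Lgals8 fell from 40.5 and 38.4 to 18.8 and 19.7.

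**Figure D2:**
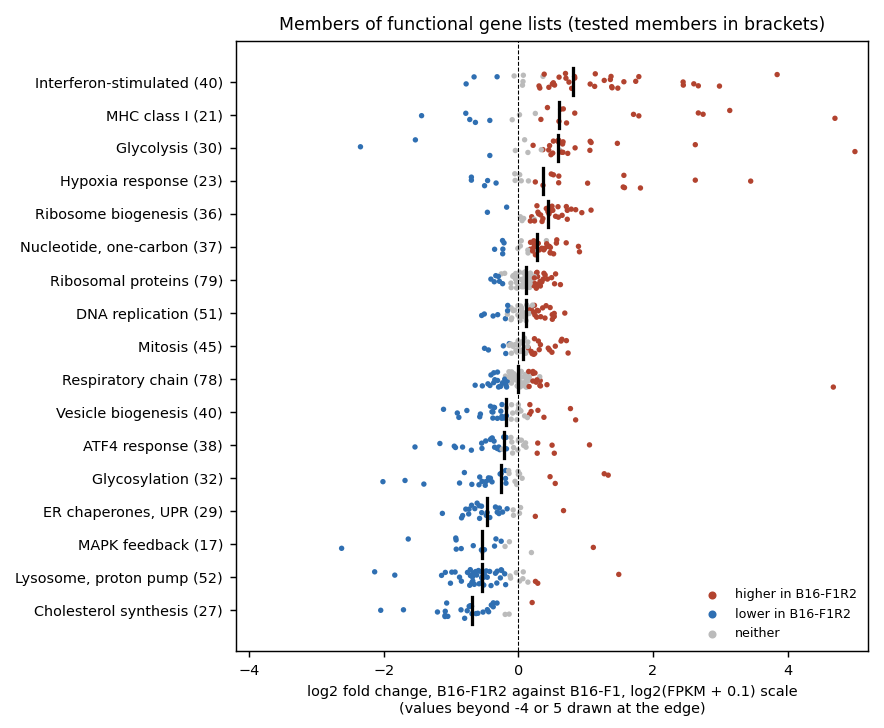
Log2 fold change of every tested member (points) of 17 functional gene lists, B16-F1R2 against B16-F1 on the log2(FPKM + 0.1) scale; red points were called higher, blue lower and grey neither, vertical bars mark the median of each list and the dashed line that of all genes tested. Cholesterol synthesis (median -0.70) and the lysosome (-0.54) lie at the low end, interferon-stimulated genes (0.81) and MHC class I genes (0.60, and 0.38 with a filter at 5 FPKM) at the high end, and the respiratory chain (-0.01) at the line.

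In the MAPK pathway, which oncogenic BRAF and receptor kinases feed in melanoma, 12 of the 17 tested genes that ERK activity raises were lower. Of 25 members 17 were tested, 4 did not pass and only Myc was higher, and Egr1, Fos and Fosl1 did not reach the filter. Spry1, a feedback inhibitor of receptor signalling, fell from 8.31 and 8.36 to 1.27 and 1.26 FPKM (log2 fold change -2.63 ± 0.12 SE, adjusted p = 7.5e-06). The ERK phosphatases Dusp4 and Dusp6 and the cyclin Ccnd1 fell by between 0.92 and 0.93 on the log2 scale, with Ccnd1 at 64.5 and 63.7 FPKM against 33.9 and 33.2. The ETS factor Etv5 went from 1.53 and 1.59 to 0.503 and 0.372. Myc, the growth regulator, was 17.3 and 18.02 FPKM in B16-F1, compared with 34.7 and 42.1 in B16-F1R2 (log2 fold change 1.11 ± 0.10 SE, adjusted p = 1.6e-04).

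The receptors above this pathway changed in both directions. Met, the receptor for hepatocyte growth factor, fell from 146 and 147 to 34.5 and 34.7 FPKM (log2 fold change -2.08 ± 0.05 SE, adjusted p = 4.2e-07 from limma). Kit, the stem cell factor receptor of melanocytes, fell from 1.63 and 1.74 to 0.261 and 0.362, and Erbb3, the neuregulin receptor, from 23.1 and 24.9 to 7.90 and 7.26. Mst1r, which encodes the relative of Met that binds macrophage-stimulating protein, was listed at 0 in both B16-F1 libraries and was 3.27 and 3.80 in B16-F1R2. Pdgfrb rose from 0.183 and 0.133 to 4.18 and 4.78, and Axl, the receptor for Gas6, from 0.987 and 0.805 to 5.202 and 5.07. In all 5 of 14 tested receptors were lower and 7 higher, but with a filter at 5 FPKM the counts were 3 and 2. Among the ligands, Mdk, the heparin-binding growth factor midkine, rose from 0.627 and 0.460 FPKM to 52.3 and 41.4. Hbegf rose by 1.36 and Fgf1 fell by 1.35 on the log2 scale.

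Other signalling lists moved in both directions and are described by their largest members, since a gene high in a single line passes the filter through that line. Gdf15, a stress-induced member of the TGF-beta family, was 0.139 and 0.144 FPKM in B16-F1, compared with 23.5 and 22.2 in B16-F1R2. Of the Wnt pathway, Dkk3 fell from 13.7 and 13.5 to 0.0226 and 0.0645, Wnt10a rose from 0.193 and 0.0675 to 3.93 and 3.47, the coreceptor Lrp5 rose by 1.69 on the log2 scale and Axin2, a target of the pathway, fell by 0.90. Crabp2, which carries retinoic acid to the nucleus, rose from 1.82 and 2.08 to 121 and 112 FPKM (log2 fold change 5.83 ± 0.08 SE, adjusted p = 6.5e-08). Aldh1a1, which makes retinoic acid, was listed at 0 in B16-F1 and 2.14 and 2.32 FPKM in B16-F1R2, while the receptor Rarb, itself induced by retinoic acid, fell by 1.46 on the log2 scale. Of the guidance cues and receptors, Sema3f, Sema3g and Ephb2 rose by 3.42, 3.24 and 2.65 on the log2 scale from values under 0.5 FPKM, and Epha3, Plxnd1 and Sema4d, at higher levels, by between 1.03 and 1.74. Plxnc1, a semaphorin receptor of melanocytes, fell from 20.2 and 20.6 to 6.90 and 7.19. Of the NF-kappaB pathway, Relb, Nfkbie and Nfkb2 fell by between 0.98 and 1.67 on the log2 scale, and Icam1 went from 0.0690 in a B16-F1 library, with the other at 0, to 2.73 and 3.31 FPKM.

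Interferon-stimulated genes included many that were higher in B16-F1R2. Of 50 members 40 were tested, 32 were higher and 3 lower, with a median log2 fold change of 0.81, and 18 rose by at least 1. Of the 32, 7 were under 1 FPKM in both B16-F1 libraries and passed the filter only through B16-F1R2, so the count and the median describe the members without supporting a rise of the list. With a filter at 5 FPKM, which some members such as Rtp4 and Usp18 also passed only through B16-F1R2, 20 of 25 were higher and the median was 0.60. Isg15, the ubiquitin-like protein, was 9.26 and 9.81 FPKM in B16-F1, compared with 34.1 and 32.3 in B16-F1R2 (log2 fold change 1.79 ± 0.06 SE, adjusted p = 1.5e-06 from limma). Irf7, the factor that amplifies the type I interferon response, rose from 0.571 and 0.804 to 5.33 and 4.44, and Irf9, a subunit of the factor ISGF3, from 4.85 and 5.196 to 15.3 and 13.1. Stat2, another subunit of ISGF3, did not pass the test. Among the effectors, Ifit1 rose from 1.63 and 1.41 FPKM to 9.67 and 9.82, Usp18 from 1.25 and 1.56 to 7.63 and 8.51 and Rtp4 from 0.970 and 0.841 to 5.29 and 5.47. The RNA sensors Ddx58, Dhx58 and Ifih1 rose by between 1.13 and 1.57 on the log2 scale. Irf1, which interferon-gamma strongly induces, was lower (8.00 and 7.39 against 4.50 and 4.39), as were Ifitm2 and Gbp2, although the call of Gbp2 was lost without B16-F1 library 1 or B16-F1R2 library 2. The interferon-stimulated response element was in the promoters of 13 of 31 matched members (41.9%) and in 2.97% of all promoters searched. Of the 13, Gbp2 and Ifitm2 were lower, Stat2 did not pass the test and the other 10 were higher. Several Ifit, Oas1 and Gbp genes are near copies of each other, and how their reads were shared is uncertain.

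The chemokines Cxcl10 and Ccl5, which draw T cells and are induced by interferon and by RNA sensing, were also higher. Cxcl10 rose from 8.02 and 8.37 to 107 and 113 FPKM (log2 fold change 3.73 ± 0.08 SE, adjusted p = 4.2e-07), and Ccl5 from 6.68 and 6.19 to 44.3 and 42.4. Ackr3, the scavenger receptor for CXCL12, fell from 3.57 and 4.002 to 0.0477 and 0.0924, and Il34, a ligand of the CSF1 receptor, rose from at most 0.0534 to 2.96 and 3.46.

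Genes of MHC class I presentation, which displays peptides to CD8 T cells, had 13 of 21 tested members higher, 5 lower and 3 neither. Of the 13, 5 passed the filter only through B16-F1R2, and with a filter at 5 FPKM 9 of 16 were higher and the list median was 0.38 in place of 0.60. H2-K1, a classical heavy chain, rose from 21.6 and 21.1 to 71.7 and 68.7 FPKM (log2 fold change 1.71 ± 0.06 SE, adjusted p = 2.2e-06), while B2m, the shared light chain, went from 341 and 330 to 458 and 446. The immunoproteasome subunit Psmb8 was 0.0862 and 0.270 in B16-F1, compared with 6.65 and 6.82 in B16-F1R2, and Psmb9 0.367 and 0.257 against 2.31 and 2.72. Tap2, of the peptide transporter, rose from 0.972 and 0.819 to 6.68 and 6.42, and Nlrc5, the transactivator of this gene set, from 0.0646 and 0.0901 to 1.29 and 1.65. Tapbp, or tapasin, which loads peptides, went against the rest, from 21.5 and 19.9 to 6.995 and 8.21. The other lower members included Calr and Pdia3, which also serve ER folding. Heavy chain genes of this family are near copies, so the split of reads between them is uncertain. Of the ligands for killer cells, H60b fell by 2.01 and Raet1d rose by 1.24 on the log2 scale, and the nectin Pvrl2 went from 20.6 and 19.3 FPKM to 41.2 and 38.8. In the complement system C2, a protease of the classical pathway, fell from 47.9 and 49.5 to 12.01 and 12.1, and Clu, or clusterin, a chaperone that also blocks the terminal complex, rose from 0.137 and 0.143 to 70.0 and 75.4.

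Glycolysis genes were higher as a group. Of 33 members 30 were tested, 22 were higher in B16-F1R2 and 3 lower, with a median of 0.59. Ldha, which makes lactate, rose from 928 and 940 to 2074 and 1880 FPKM (log2 fold change 1.08 ± 0.06 SE, adjusted p = 2.4e-05 from limma). The committed step enzyme Pfkl rose from 23.3 and 24.3 to 69.1 and 63.1, Pgam1 from 424 and 426 to 720 and 694 and Hk1 from 25.9 and 26.8 to 47.7 and 47.0. Gapdh did not pass the test, at 1938 and 2009 against 2144 and 2063. Pdk1, which turns pyruvate away from mitochondria, rose from 2.62 and 2.78 to 17.8 and 16.5 (log2 fold change 2.63 ± 0.09 SE, adjusted p = 1.7e-06). Fbp2, the muscle form of the gluconeogenic fructose bisphosphatase, was listed at 0 in both B16-F1 libraries and was 7.63 and 7.86 in B16-F1R2. The lactate exporter Slc16a3, or MCT4, fell from 5.94 and 6.15 to 1.22 and 1.01, while Slc16a1, or MCT1, rose modestly, from 29.8 and 28.8 to 40.4 and 39.6. Aldoc, the brain aldolase, fell by 1.53 on the log2 scale. The hypoxia list overlapped this group through Pdk1 and Slc2a1 and had 13 of 23 tested members higher and 5 lower, or 3 lower without the second library of either line. Adm, the vasodilator adrenomedullin, rose from 2.04 and 2.38 to 7.78 and 8.22 and Bnip3, a mitophagy receptor, from 12.1 and 11.4 to 36.4 and 33.1. Hif1a, Car9 and Egln1 did not pass the test and Ndrg1 was lower (35.8 and 35.6 against 23.6 and 20.4). The hypoxia response element was in 8 of 29 matched glycolysis promoters (27.6%) and 4 of 18 hypoxia promoters (22.2%), against 9.47% of all. Slc16a3 was lower and the other members that carried it were called higher. The respiratory chain, in contrast, had 13 of 78 tested members higher and 18 lower, with a median of -0.01. These counts moved with single libraries, to 6 higher without B16-F1 library 1, 8 without B16-F1R2 library 1 and 20 without B16-F1R2 library 2. The count lower was 9 and 10 without B16-F1 library 1 and 2.

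**Figure D3:**
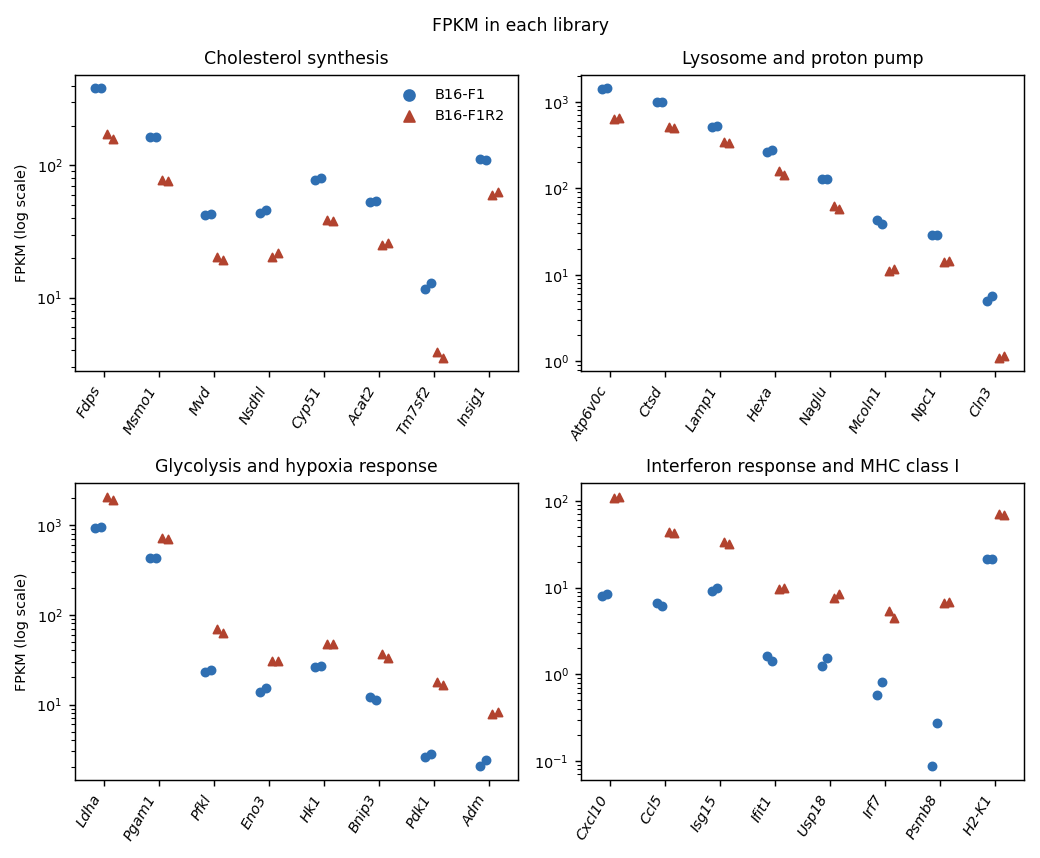
FPKM (log scale) in each of the 2 libraries of B16-F1 (blue circles) and of B16-F1R2 (red triangles) for 8 genes of each of 4 groups, chosen after their values were seen. Fdps, at 384 and 383 against 174 and 160, and the other sterol and lysosomal genes shown are lower in B16-F1R2. Those shown of glycolysis, the hypoxia response, the interferon response and MHC class I are higher. Pdk1, for example, is at 2.62 and 2.78 against 17.8 and 16.5. Members that went the other way, such as Slc16a3, Ndrg1, Irf1 and Tapbp, are not drawn. The lines do not overlap in any gene shown, as in 80.2% of all genes tested.

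Most ribosome assembly genes, many of them targets of Myc, were higher by small amounts. All 36 members were tested, 30 were higher in B16-F1R2 and 2 lower, with a median of 0.45, and only Gnl3 rose by at least 1. Gnl3, or nucleostemin, went from 40.1 and 38.1 to 82.8 and 82.7 FPKM (log2 fold change 1.08 ± 0.04 SE, adjusted p = 4.4e-06). Nop58, of the box C/D particles that guide RNA methylation, went from 75.4 and 73.1 to 144 and 141, and Npm1, or nucleophosmin, from 541 and 524 to 942 and 894. Of the RNA polymerase I subunits, Polr1e rose from 3.69 and 3.56 FPKM to 6.89 and 6.35, while Polr1a and Polr1b did not pass the test. Bysl was lower (31.3 and 32.9 against 23.8 and 22.8). The other member called lower, Polr1c, lost that call without any library but B16-F1 library 1. The E-box CACGTG, which Myc binds and which the CLEAR element contains, was in 1 of 32 matched promoters of the list (3.12%) against 10.3% of all. The ribosomal proteins themselves had 22 of 79 higher, a share near the 28.0% of all genes, and 6 lower, but 39 were higher without B16-F1R2 library 2 and 14 without either B16-F1 library. The count lower was 0, 1 and 2 without B16-F1 library 1, B16-F1 library 2 and B16-F1R2 library 2. With the FPKM rescaled to an equal sum, 39 were higher.

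Nucleotide and one-carbon genes had 25 of 37 tested members higher and 5 lower, none by 1 or more, with a median of 0.27. The lower count was 2 without B16-F1R2 library 2 and 3 without any other library. Aprt, which salvages adenine, went from 92.3 and 97.4 FPKM to 182 and 174, and the IMP dehydrogenases Impdh1 and Impdh2, of guanine nucleotide synthesis, rose by 0.71 and 0.52 on the log2 scale. Mthfd2, the mitochondrial folate enzyme and also an ATF4 target, was lower (129 and 122 against 98.5 and 97.8). Genes of DNA replication had 20 of 51 members higher and 7 lower, and those of mitosis 17 of 45 higher and 5 lower. Over all genes tested, 28.0% were called in each direction. The medians of these 2 lists were 0.12 and 0.07, and none of their members changed by 1 or more on the log2 scale. Of the heat shock genes, 15 of 27 tested were higher and 4 lower. Hsp90aa1, the inducible cytosolic Hsp90, rose from 472 and 454 FPKM to 1068 and 1017, and the small chaperone Hspb1 from 14.1 and 17.6 to 67.8 and 67.5.

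Redox genes were divided, with 19 of 50 tested higher and 17 lower and a median of 0.01. Cyba, the p22phox subunit of NADPH oxidases, was 16.6 and 16.7 FPKM in B16-F1 and had a listed value of 0 in both libraries of B16-F1R2. Gsta4, a glutathione transferase for lipid aldehydes, rose from 1.20 and 1.63 to 45.4 and 35.5, and Sod3, the secreted superoxide dismutase, from 0.256 and 0.178 to 6.53 and 7.79. Gstm1 and Mgst1 fell by 1.41 and 1.04 on the log2 scale. Near copies within the glutathione transferase families make single members uncertain.

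The cytoskeleton held some of the largest rises. Of 31 tested genes of a list for the contractile apparatus, 17 were higher and 7 lower, or 4 lower without either B16-F1 library. Of the 17, 8 were under 1 FPKM in both B16-F1 libraries and passed the filter only through B16-F1R2, so the count is no support for a rise of the list. With a filter at 5 FPKM, 13 of 26 were higher and 8 lower. The list holds actin, myosin and their binding proteins and also the creatine kinases Ckm and Ckb, the calcium store protein Casq1 and Des, all 4 called higher, and Des is counted again among the intermediate filaments. Myl9, a regulatory myosin light chain of smooth muscle, was 0.224 and 0.468 FPKM in B16-F1, compared with 33.7 and 33.3 in B16-F1R2. Tpm2 and Lmod1, also of contractile cells, rose from under 0.1 to between 1.55 and 2.75, whereas Tagln2 fell from 49.9 and 49.6 to 16.3 and 15.8. Among intermediate filament genes, lamins and the linker Plec included, 8 of 10 tested were higher and none was lower. Of the 8, 3 passed the filter only through B16-F1R2. In the fit of the 4 libraries alone, 2 were lower. Gfap, of glia, rose from 0.559 and 0.757 to 18.8 and 17.5, Des, of muscle, from 0.951 and 0.926 to 10.1 and 9.38, and Nes, of neural progenitors, from 16.4 and 16.1 to 34.8 and 35.1. Of the Schwann cell lineage, which shares the neural crest origin of melanocytes, Ngfr, the p75 receptor, rose from 0.0748 and 0.0526 to 6.57 and 8.05 and Mbp from 95.5 and 94.6 to 559 and 562 (log2 fold change 2.56 ± 0.04 SE, adjusted p = 1.0e-07). The calcium-binding S100a4, S100a6 and S100a16 rose, S100a6 from 4.51 and 4.42 to 52.0 and 51.4, and S100a1 fell from 109 and 116 to 50.3 and 41.6.

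At the cell surface, Itgb2, the leukocyte beta-2 integrin chain, went from at most 0.0280 FPKM to 9.11 and 7.35. Jup, the junction protein plakoglobin, rose from 0.632 and 0.649 to 6.43 and 5.91 and Jam2 by 2.43 on the log2 scale, while F11r, which encodes JAM-A, fell from 5.66 and 5.36 FPKM to 1.23 and 1.60. The gelatinase Mmp2 rose from 1.22 and 1.06 to 22.9 and 22.8. Of the tetraspanins, which are abundant in extracellular vesicles, Cd37 rose from at most 0.184 to 20.9 and 16.4, and Cd82, known as a metastasis suppressor, fell from 6.18 and 6.52 to 1.62 and 1.56. Of the genes for vesicle formation, 20 of 40 tested were lower, among them Sdcbp, or syntenin, at 316 and 318 against 174 and 170. The counts higher among them, 7 in all, were 3 or 4 when any library was left out. Of the genes of ion transport, Fxyd1, of a family of sodium pump regulators, was listed at 0 in B16-F1 and reached 22.7 and 21.98 in B16-F1R2, and the calcium channel Cacna1c, which fell from 2.98 and 3.08 to 0.282 and 0.315.

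The 20 largest rises and the 20 largest falls of abundant genes outside the matrix and pigment lists were ranked by log2 fold change. All 20 rises started below 0.33 FPKM in both B16-F1 libraries, with Mrap, Lrmp, Fxyd1, Cyct, As3mt, Defb25, Fitm1, Spink8, Rasgef1c and Nr5a1 listed at 0 in both. They passed the filter only through B16-F1R2. A start near 0 follows largely from the ranking, so it is no separate result. Mrap, the accessory protein of melanocortin receptors, reached 27.1 and 26.8 FPKM in B16-F1R2, Lrmp, known from lymphoid cells, 24.8 and 21.9, and Il17b, an interleukin of the IL-17 family, 40.1 and 36.4. Nr5a1, the steroidogenic nuclear receptor SF-1, reached 10.7 and 9.78. Among the falls, only Cyba was listed at 0 in B16-F1R2. Isyna1, which makes inositol phosphate, fell from 36.9 and 40.5 to 0.125 and 0.176, Tmsb4x, the actin-binding thymosin, from 12.1 and 9.72 to 0.348 and 0.163, Mgll, the monoglyceride lipase, from 26.4 and 28.1 to 1.65 and 1.17 and Pla2g2e, a secreted phospholipase, from 77.1 and 69.8 to 8.28 and 9.74. Counting all genes, matrix and pigment included, 45 had a mean of at least 10 FPKM in B16-F1R2 and under 1 in B16-F1, and 10 had the opposite, small RNA genes aside.

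**Figure D4:**
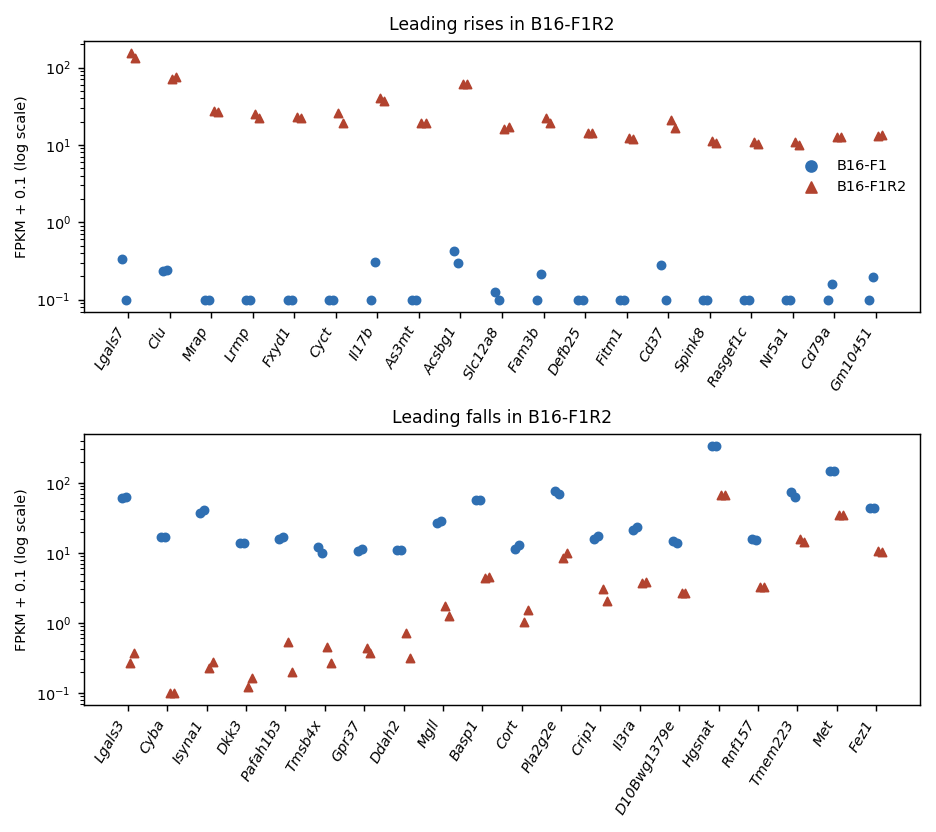
FPKM + 0.1 (log scale) in each library of B16-F1 (blue circles) and B16-F1R2 (red triangles) for 19 of the 20 largest rises (upper panel) and the 20 largest falls (lower panel) among abundant genes outside the matrix and pigment lists; points at 0.1 are listed at 0. Lgals7 leads the rises at 154 and 132 FPKM and Lgals3 the falls, from 60.1 and 63.0 to 0.170 and 0.267.

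The promoters of genes that rose strongly held few CpG dinucleotides, the sites of DNA methylation. Each gene was counted by its promoter with the most CpG. The median over all matched genes was 18 CpG in 250 bases. It was 9 for the 564 matched genes that rose by at least 1 on the log2 scale, 16 for the 249 that fell by as much and 6 for the 30 matched genes that went from under 1 FPKM to 10 or more. For the 8 matched genes that went the opposite way it was 13.5. Fewer than 5 CpG were found for 6.21% of all matched genes, for 23.8% of the first group, for 10.8% of the second, for 12 of the 30 (40.0%) and for 1 of the 8 (12.5%). The 30 genes passed the filter only through B16-F1R2. These shares describe the promoters of genes chosen by their change, and methylation was not measured. The promoters of Acsbg1 (1 CpG) and Fxyd1 (3 CpG), with each CG in capitals, show the CpG-poor kind.
Acsbg1, chr9:54661886-54662135, minus strand: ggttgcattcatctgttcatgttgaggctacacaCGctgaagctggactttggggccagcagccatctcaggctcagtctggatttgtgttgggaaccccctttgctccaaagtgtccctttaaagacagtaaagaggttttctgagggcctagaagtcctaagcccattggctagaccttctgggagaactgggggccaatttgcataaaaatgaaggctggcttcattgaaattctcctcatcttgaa
Fxyd1, chr7:31054854-31055103, minus strand: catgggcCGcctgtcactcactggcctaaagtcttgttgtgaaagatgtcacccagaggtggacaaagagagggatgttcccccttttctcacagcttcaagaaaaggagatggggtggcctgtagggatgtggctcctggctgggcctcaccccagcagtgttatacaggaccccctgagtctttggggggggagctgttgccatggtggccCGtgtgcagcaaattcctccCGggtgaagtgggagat

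**Figure D5:**
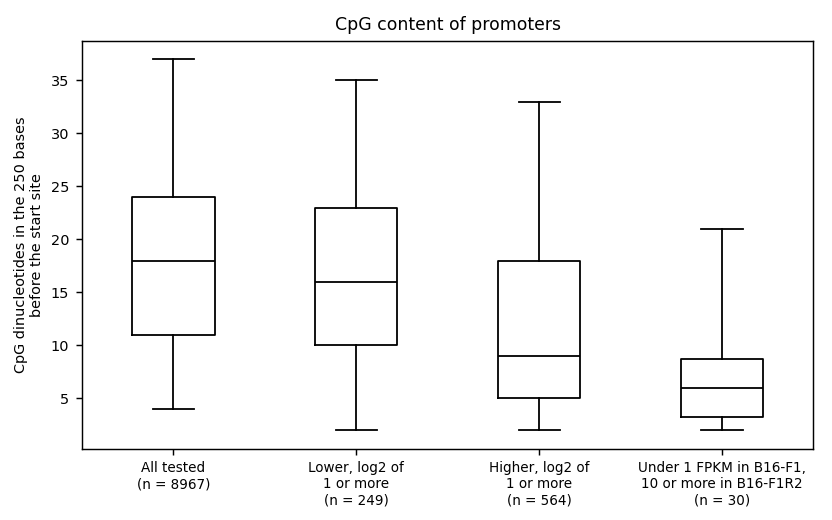
CpG dinucleotides in the 250 bases before the start site (vertical axis) for all tested genes, genes lower or higher by a log2 fold change of at least 1, and genes under 1 FPKM in B16-F1 and at 10 or more in B16-F1R2; lines mark medians, boxes the quartiles and whiskers the central 90% of genes. Each gene with a promoter is counted by the one with the most CpG, and the medians are 18, 16, 9 and 6.

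The reference genes bear on how the scale of these changes reads. Of 20 commonly used reference genes 11 did not pass the test, 5 were higher and 4 lower, or 2 lower without either B16-F1 library. Actb was 1183 and 1234 FPKM against 1105 and 1134, and Ppia 5070 and 5067 against 5318 and 4879. The largest difference was that of Tfrc, the transferrin receptor, with a log2 fold change of 0.70, followed by Tubb5 with -0.59, Pgk1 with 0.48 and Hprt with 0.47. The median over these genes was -0.06, and 0.01 after the median of each chromosome was subtracted.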

How the data were processed

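Polyadenylated RNA of the 3 cell lines, 2 libraries each, was sequenced by the authors in single-end reads of 50 bases from a stranded kit and aligned with TopHat 2.0.10 and Bowtie 1.0.0 to NCBI37/mm9. The deposited values are FPKM per gene, 1 column a library, with replicates not pooled. The authors used DESeq2 for differential expression, whose results were not used here. The submitters' processing notes also list Cuffnorm, without its role, and the annotation and the strand setting of the counting are not given in the sources used here. Shared reads can therefore be split between near-identical genes.

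From these values, log2(FPKM + 0.1) was modelled over all 6 libraries by limma (version 3.58.1 under R 4.3.3, moderated with a mean trend), for genes that reached 1 FPKM in 2 or more of the 4 libraries compared, with Benjamini-Hochberg adjustment over the genes tested and a threshold of 0.05. The fit was tested on simulated data. FPKM are not counts, so no count test was used. Depth was estimated from the lowest FPKM of genes with 1 transcript, and limits the precision of values near 0. An exact 0 is described as listed at 0.

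Genes were grouped in lists by textbook function. The members and lists were chosen with earlier results of these data known, so the lists are described by counts and medians beside all genes, without a test. Named genes were the 20 largest rises and falls with a mean of at least 10 FPKM in the higher line and no overlap, outside matrix, pigment and small RNA genes, the 3 largest called changes in each direction in each list, and the reference genes. A few genes that this rule or the lists hold are not reported here. Other named genes were chosen after their values were seen. Errors after ± are standard errors of the log2 fold change (SE). Alternatives were other pseudocounts, filters, scalings and designs, and each library left out. Promoters are RefSeq's, build GRCm38.p6, and no coordinates of the files' build are given.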

Additional observations from a re-analysis of the deposited data

How the results depend on the processing

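The counts moved most when called genes also had to change by 1 or more on the log2 scale, to 723 higher and 327 lower. Pseudocounts of 1 and 0.01, other filters and scalings, a fit without a trend, a fit of the 4 libraries alone and the removal of small RNA genes kept the counts within 1.5 times of 3118 and 3115, and with each library left out in turn they lay between 2414 and 2606 higher and between 2305 and 2610 lower. Of the named genes' values under the settings that kept all 4 libraries of the compared lines, 3854 kept direction and side of the threshold, 35 lost the call, 6 gained it and 1 reversed, where quantile normalization gave Col1a2 a log2 fold change of -0.53. With a library left out, 24 to 33 of the 362 named genes lost the call, and 54 changed call or direction at least once over all settings. Of the list medians that lay farther from 0 than the spread between libraries, some reversed. Without a filter, the NF-kappaB targets had 0.158 and the semaphorin and ephrin genes -0.027. With a filter at 5 FPKM, the receptor tyrosine kinases had -0.278, the Wnt pathway -0.077 and the imprinted genes -0.222. With quantile normalization, the Wnt pathway had -0.017 and the homeobox genes -0.042. With the chromosome median subtracted, a setting chosen after seeing the data, the NF-kappaB targets had 0.076 and the reference genes 0.007. Medians closer to 0, at most 0.11 in size, changed sign under at least 1 setting in 11 further lists and carry no direction. The cause was not tested, other than that filters change which members are tested. The medians of cholesterol synthesis stayed between -0.72 and -0.65, of the lysosome between -0.55 and -0.51 and of glycolysis between 0.50 and 0.64.

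A block for the replicate number gave 3071 genes higher and 3079 lower. No pairing by number was visible, as the deviations of same-numbered libraries from their line means correlated by -0.05 between B16-F1 and B16-F1R2 over 11031 genes. Whether same-numbered libraries were prepared together is not in the labels, and a correlation near 0 cannot exclude it. Values under about 0.1 FPKM rest on few reads.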

Other observations

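Several genes known from blood cells were higher in B16-F1R2 although Ptprc, Ikzf1, Dock2, Cd53 and Tyrobp were listed at 0 in all 4 libraries. These genes were chosen after their values were seen. Vav1, a Rac activator of lymphocytes, was at most 0.0196 FPKM in B16-F1, compared with 2.35 and 2.31 in B16-F1R2. Nckap1l, the blood cell form of a WAVE complex subunit, was at most 0.0161 against 7.77 and 7.40, Inpp5d, the phosphatase SHIP1, at most 0.0170 against 4.97 and 5.40, and Ptpn7 was listed at 0 against 7.87 and 7.89. Def6, Cd72 and Gimap9 were already present in B16-F1, at 1.65 and 1.66, 2.98 and 3.27, and 0.665 and 0.687 FPKM, and reached 15.2 and 16.4, 24.5 and 27.0, and 9.32 and 9.11. Cd79a, part of the B cell receptor, stood at 12.7 and 12.4 with its partner Cd79b at 0.310 and 0.291. Coro1a and Lcp2, also of blood cells, stayed under 1 FPKM in every library.

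A similar set came from muscle metabolism, again chosen after its values were seen. Ckm, muscle creatine kinase, was 0.0746 and 0.155 FPKM in B16-F1, compared with 15.8 and 13.1 in B16-F1R2, Pygm, muscle glycogen phosphorylase, at most 0.0636 against 6.97 and 7.58, and Slc2a4, the insulin-responsive glucose transporter GLUT4, 0.346 and 0.297 against 6.95 and 7.74. Casq1, Myoz1 and Apobec2 also rose, Apobec2 from 0.405 and 0.506 to 29.1 and 26.0. The myogenic factors Myod1 and Myog and the myosin Myh4 were listed at 0 in all 4 libraries, and Acta1 was at most 0.258. Of genes known from liver and steroid-making tissue, Nr1i2, the xenobiotic receptor PXR, went from 0.0314 and 0.0329 to 10.7 and 9.56 and F2, prothrombin, from 0 to 5.87 and 4.98, while Alb, Hnf4a and Mc2r were listed at 0 in all 4 libraries.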
